A study of Mus musculus with 6 samples.

Results

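The genes described here are Trp53, the gene of the tumour suppressor p53, its regulators Mdm2 and Mdm4, and 29 genes known as p53 targets, 32 in all. They were taken by symbol from a deposited table of 23057 genes, and all 32 were found. Tp53i11 was listed there under its mouse symbol Trp53i11. Cdkn1a and the apoptosis genes were kept out of the set and are given only as context. The RNA came from brains of C57BL/6 mice, 3 per group, that had received 10 Gy of cranial X-rays through a collimated field of 10.08 mm or a mock exposure 30 days earlier. The series title concerns radiation-induced senescence in the tissue around brain tumors, and p53 signalling is a main route into senescence. The labels call the tissue whole brain, taken after perfusion with PBS, and give no genetic change, age or sex. Nothing says how the mice were housed or processed together, so the spread between libraries is that of 3 samples per group.

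p53 is held low in unstressed cells by the ubiquitin ligase Mdm2 and its partner Mdm4. DNA damage, such as that made by X-rays, activates kinases that free p53, which then binds its response elements and switches on genes of cell-cycle arrest, DNA repair, death signalling and redox control. Mdm2 is itself a target, which closes a feedback loop, and the response in dividing cells is usually strong within hours. In the brain some of these targets have a second source of expression, since Plk2, Plk3 and Btg2 are also induced by neuronal activity.

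Values are FPKM, a read number scaled to transcript length and library total, so levels can be compared between genes. Genes that averaged 0.5 FPKM or more were tested with limma on log2(FPKM + 0.5), and fold changes on that scale understate the change of low genes. Of the 32 genes, 30 passed this filter, and Eda2r and Ckap2 did not. An adjusted p under 0.05 over all 14585 genes tested was a call.

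Of the 30 tested members 27 were not called, and 3 were called higher in the irradiated libraries. These were Psrc1, Plk2 and Trp53i11, at 7.87, 3.63 and 1.89 times the mock mean in FPKM. No member was called lower. At an unadjusted p under 0.05, 7 members were higher (23.3%) and 0 lower, against 11.7% and 13.9% of all genes tested. Over all genes tested, 3.48% were called higher and 4.24% lower, so 3 of 30 members is 10% against a background of 3.48%. The median log2 change was 0.08 over the 30 members and -0.02 over all genes tested. The members' median was 0.12 without mock 1, 0.11 without mock 2 and 0.13 without mock 3. It was 0.07 without irradiated 1, 0.15 without irradiated 2 and 0.14 without irradiated 3. Without irradiated 3 the count was 1, Psrc1, and without mock 2 and irradiated 1 together it was 2, Psrc1 and Plk2. Eda2r, below the filter, was at 3.32 times its mock mean and was called higher in a fit with no filter, in which 1.81% of 19679 genes were called higher.

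In 8 of the 30 tested members every irradiated library lay above every mock library, and in 1, Perp, every one lay below. This is 26.7% above and 3.33% below, against 13.7% and 17.7% of all genes tested. The 8 were Psrc1, Plk2, Trp53i11, Ephx1, Ptp4a3, Aen, Ccng1 and Trp53. Eda2r was separated upward and Ckap2 downward as well. The members were chosen with earlier results of these data known, so these shares describe the set and were not tested.

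**Figure D1:**
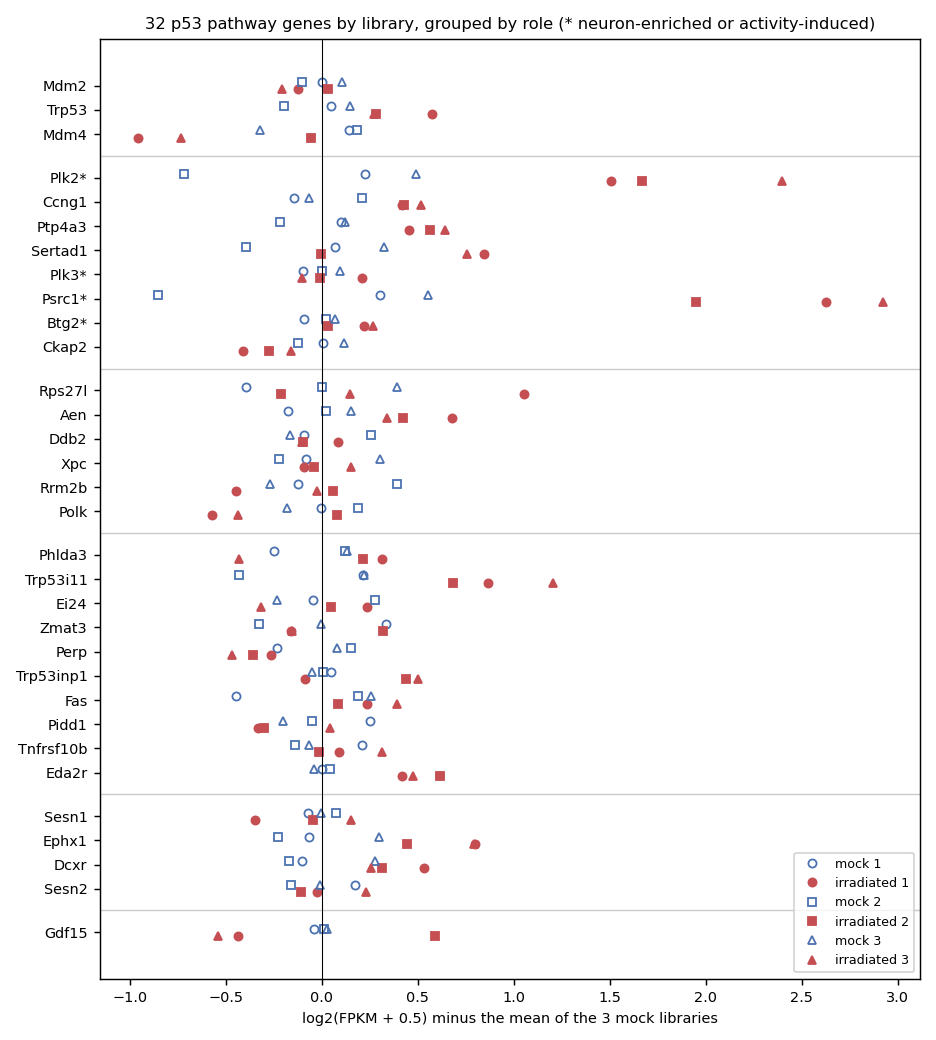
Level of each of the 32 genes in each library, as log2(FPKM + 0.5) minus the mean of the 3 mock libraries (open blue, mock; filled red, irradiated; marker shape, replicate number), grouped from top to bottom as core, cell cycle, DNA repair, death signalling, redox and secreted. Psrc1 and Plk2 stand far to the right in all 3 irradiated libraries, and the groups overlap in 21 of the 32 genes.

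The libraries differed in marker genes of brain regions, and this touches every result below. Sums over 10 cerebellar genes were 1255 to 1882 FPKM in the mock and 129.1 to 274.1 FPKM in the irradiated mice, and all 10 were called lower. Sums over 8 telencephalic neuron genes were 92.4 to 457.0 FPKM in the mock and 1008 to 1957 FPKM in the irradiated mice. All 8 of these genes had a positive log2 change, and 2 were called. The low end was mock 2. The label of whole brain is therefore not matched by equal regional markers, and region cannot be told apart from irradiation by group alone. Sums over 10 microglial genes were 212.5 to 256.6 FPKM in the mock and 262.7 to 449.7 FPKM in the irradiated mice, and over 8 T cell genes 1.3 to 2.25 and 4.55 to 5.85 FPKM. Only 2 of these T cell genes, Lck and Zap70, passed the filter and were separated between the groups, and the other 6 overlapped. Both were called higher, and with no filter 1 T cell gene was. Sums over 8 oligodendrocyte genes were 5301 to 6388 and 2483 to 4377 FPKM, and over 8 astrocyte genes 1748 to 1972 and 1218 to 1470 FPKM. Few single genes of the microglial, oligodendrocyte and astrocyte lists were called. Of the 10 microglial genes 8 changed upward and 2 downward, and 1 was called higher. All 8 oligodendrocyte genes changed downward, and 1 was called lower. Of the 8 astrocyte genes 5 changed downward and 3 upward, and 2 were called lower. Over all genes tested 3.48% were called higher and 4.24% lower. In such bulk RNA a change in the number of cells of a type and a change in RNA per cell cannot be told apart.

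None of the 3 core genes was called. Trp53 (chromosome 11, 69580348 to 69591873 in GRCm38.p6, the assembly that mm10 represents) measured 9.04, 7.57 and 9.74 FPKM in the mock and 13.3, 10.7 and 10.7 FPKM in the irradiated mice. The groups did not overlap, but the gap between mock 3 and the 2 lowest irradiated libraries was smaller than the range within mock. Its log2 change was 0.38 (SE 0.17, 95% interval -0.01 to 0.76, limma adjusted p = 0.21). Mdm2 measured 12.9, 11.9 and 13.9 FPKM in the mock and 11.8, 13.2 and 11.1 FPKM in the irradiated mice, so the groups overlapped (log2 change -0.10, 95% interval -0.45 to 0.25). Mdm4, the second inhibitor of p53, measured 10.5, 10.8 and 7.47 FPKM in the mock and 4.63, 9.08 and 5.50 FPKM in the irradiated mice. Irradiated 1 and irradiated 3 lay below all mock libraries and irradiated 2 within their range, with a log2 change of -0.58 (95% interval -1.17 to 0.01, adjusted p = 0.20).

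Of 8 genes of cell cycle and arrest, 7 were tested, and all 7 had a positive log2 change. Psrc1 and Plk2 were called higher (28.6%, against 3.48% of all genes) and 0 lower. At an unadjusted p under 0.05, 4 were higher (57.1%, against 11.7%) and 0 lower. Psrc1, which encodes a microtubule-binding spindle protein (chromosome 3, 108383804 to 108388231), measured 1.10, 0.22 and 1.40 FPKM in the mock and 7.49, 4.51 and 9.33 FPKM in the irradiated mice. Each irradiated library held over 3 times the highest mock value, and the log2 change was 2.50 (SE 0.39, adjusted p = 0.0074 in limma). Plk2, a polo-like kinase that weakens excitatory synapses after sustained activity (chromosome 13, 110395044 to 110400844), measured 15.99, 8.08 and 19.4 FPKM in the mock and 39.6, 44.3 and 73.8 FPKM in the irradiated mice. Irradiated 3 stood highest and mock 2 lowest, and the log2 change was 1.86 (SE 0.34, adjusted p = 0.017). Without irradiated 3 Plk2 was not called (adjusted p = 0.056, log2 change 1.59). In the same libraries the telencephalic neuron sum was highest in irradiated 3 and lowest in mock 2. Between these ends the orders differed. The sum was higher in mock 1 than in mock 3 (457.0 against 417.1 FPKM), and Plk2 was lower. It was also higher in irradiated 1 than in irradiated 2 (1108 against 1008 FPKM), and Plk2 was again lower.

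Plk3 and Btg2, the other activity-induced members, were not called. Plk3, a paralog of Plk2, measured 6.56, 7.05 and 7.57 FPKM in the mock and 8.24, 7.0 and 6.53 FPKM in the irradiated mice, with a log2 change of 0.03 (95% interval -0.33 to 0.40). Btg2, an antiproliferative gene, measured 5.08, 5.54 and 5.76 FPKM in the mock and 6.44, 5.60 and 6.66 FPKM in the irradiated mice, with one of 0.17 (95% interval -0.18 to 0.53). Both sets of values overlapped between the groups. Of 12 activity-induced genes fixed as context, such as Fos, Arc and Egr1, 0 were called higher and 1 was called lower (8.33%). Over all genes these shares were 3.48% and 4.24%. The lower gene, Dusp5, encodes a phosphatase of the ERK pathway. Before adjustment 2 were higher (16.7%, against 11.7%) and 1 lower (8.33%, against 13.9%) at p under 0.05. The 12 had a median log2 change of 0.53, with 8 positive and 4 negative. Their sum was 150.0, 98.1 and 204.4 FPKM in the mock and 165.7 to 220.5 FPKM in the irradiated mice, so mock 2 was lowest. Part of Plk3's exon sequence, 84 bases, is shared with Tctex1d4 on the opposite strand, and whether the authors' counting used strand is not given in the sources used here.

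Ccng1, which encodes cyclin G1, a feedback regulator of p53 through Mdm2 (chromosome 11, 40748552 to 40755309), measured 15.3, 19.7 and 16.2 FPKM in the mock and 22.9, 23.1 and 24.5 FPKM in the irradiated mice. The irradiated values were the tighter group and all lay above mock, with a log2 change of 0.45 (SE 0.16, 95% interval 0.10 to 0.81) that missed the threshold (adjusted p = 0.11). Ptp4a3, a phosphatase also called PRL-3 (chromosome 15, 73723145 to 73758766), measured 10.8, 8.53 and 10.9 FPKM in the mock and 13.9, 15.0 and 15.9 FPKM in the irradiated mice. Its log2 change was 0.55 (95% interval 0.19 to 0.92, adjusted p = 0.073). Sertad1, a regulator of CDK4 and E2F activity, measured 7.82, 5.54 and 9.43 FPKM in the mock and 13.8, 7.40 and 12.9 FPKM in the irradiated mice, so irradiated 2 lay inside the mock range (log2 change 0.53, adjusted p = 0.26). Ckap2, a spindle protein of dividing cells, was low throughout, with 0.48, 0.40 and 0.56 FPKM in the mock and 0.23, 0.30 and 0.37 FPKM in the irradiated mice. All irradiated values were below mock, but it was not called with no filter (log2 change -0.28, adjusted p = 0.19). Sums over 8 proliferation genes were 2.27 to 2.76 FPKM in the mock and 2.36 to 2.99 FPKM in the irradiated mice.

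**Figure D2:**
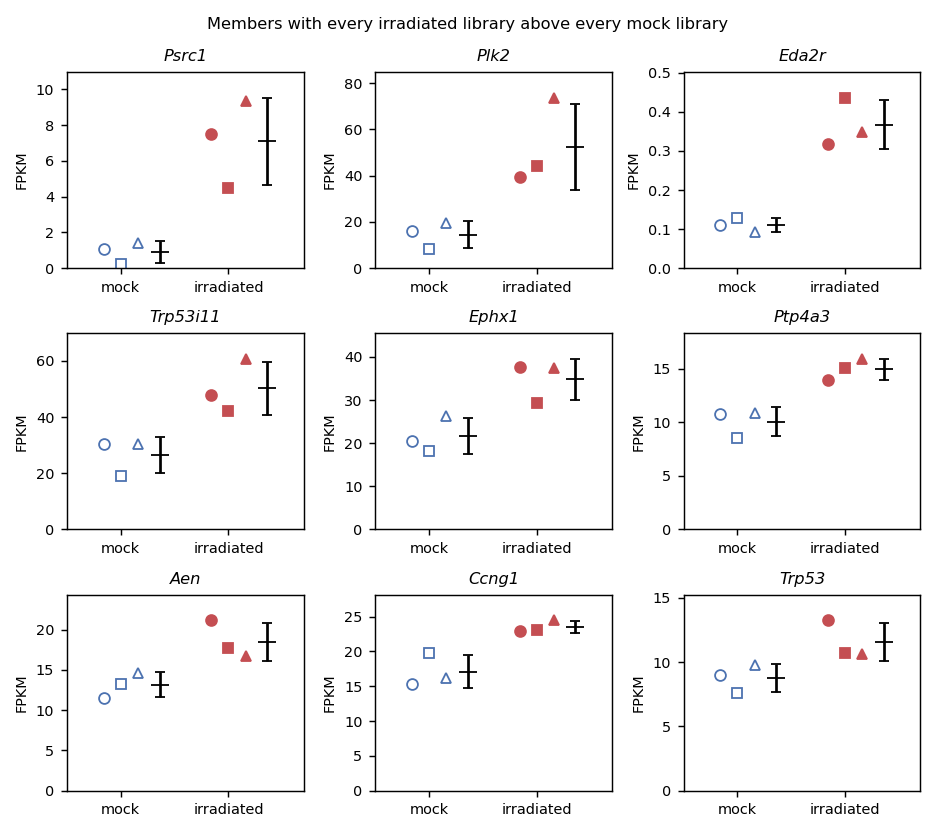
FPKM of the 9 members, Eda2r among them, whose 3 irradiated libraries (filled red) all lie above the 3 mock libraries (open blue), with marker shape giving the replicate number and the bar the mean and SD (n = 3). Mock 2 (square) is the lowest mock value for Psrc1, Plk2, Trp53i11, Ephx1, Ptp4a3 and Trp53 but the highest for Eda2r and Ccng1.

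Genes of DNA repair and nucleotide supply gave 0 calls among 6 tested. At an unadjusted p under 0.05, 1 was higher (16.7%, against 11.7% of all genes). That gene, Aen, encodes an exonuclease that digests DNA in dying cells (chromosome 7, 78895927 to 78911209). It measured 11.5, 13.3 and 14.6 FPKM in the mock and 21.2, 17.7 and 16.7 FPKM in the irradiated mice. Its log2 change was 0.48 (SE 0.17, 95% interval 0.10 to 0.86, adjusted p = 0.12). Ddb2 and Xpc, the damage sensors of nucleotide excision repair, had log2 changes of -0.04 (95% interval -0.43 to 0.35) and 0.01 (-0.42 to 0.43). Ddb2 shares 652 exon bases with Acp2 on the opposite strand, so reads of the pair may not be separated. Rrm2b and Ei24 share 734 and 324 exon bases with antisense genes, and Ephx1 72 with a pseudogene, so their levels carry the same doubt. Rrm2b, the p53-induced ribonucleotide reductase subunit, ranged from 6.24 to 10.2 FPKM in the mock and from 5.47 to 7.98 FPKM in the irradiated mice, and Polk, a translesion polymerase, from 2.00 to 2.72 and from 1.40 to 2.49 FPKM. Rps27l, a close paralog of the ribosomal protein gene Rps27, measured 42.4, 55.9 and 73.6 FPKM in the mock and 116.4, 48.1 and 61.9 FPKM in the irradiated mice. Irradiated 1 stood apart and the other 2 lay within the mock range. Reads shared with Rps27 or its copies make the Rps27l level uncertain.

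The matching letters of p53 sites in the promoters are shown because the members are defined as p53 targets, and because Aen and Ccng1 were separated upward. RefSeq windows of GRCm38.p6, from 250 bases before to 50 after a transcript start, were on hand for 24 of the 32 genes. The p53 half-site consensus, a 10-base motif that reads the same on both strands, was found without a mismatch in at least 1 window of 9 of the 24 (37.5%), against 8.56% of 17180 genes of the table. A pair of half-sites at most 1 base apart, with at most 2 mismatches over both and their 4-base cores intact, was found in 2 of the 24, Rps27l and Ckap2, against 0.314% of the genes of the table. Capitals mark the half-site in the first 4 sequences and the pair in the last 2, each read 5′ to 3′ along the strand of its gene.
Aen, chr7:78895917-78895966, plus strand: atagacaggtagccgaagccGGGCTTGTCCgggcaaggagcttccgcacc
Ccng1, chr11:40755442-40755491, minus strand: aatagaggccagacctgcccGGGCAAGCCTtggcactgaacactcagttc
Mdm2, chr10:117710915-117710964, minus strand: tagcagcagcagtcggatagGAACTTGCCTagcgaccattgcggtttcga
Trp53, chr11:69580264-69580313, plus strand: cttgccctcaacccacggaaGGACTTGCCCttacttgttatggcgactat
Rps27l, chr9:66946276-66946335, plus strand: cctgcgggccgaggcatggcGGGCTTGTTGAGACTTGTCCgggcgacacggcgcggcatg
Ckap2, chr8:22185983-22186042, minus strand: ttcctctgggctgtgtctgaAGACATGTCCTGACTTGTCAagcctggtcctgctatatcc

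The half-site of Aen ends 111 bases before 1 of its 2 listed starts, that of Ccng1 175 and that of Trp53 65 bases before the start. Ei24, Polk and Sesn1 also held a half-site. The windows of Psrc1, Plk2, Trp53i11, Eda2r and Ephx1 held none, which says only that these letters are not in those windows. Of the 6 genes printed, Aen, Ccng1 and Trp53 were separated upward, Ckap2 downward, and Mdm2 and Rps27l overlapped between the groups. Ei24, Polk and Sesn1, which are not printed, overlapped as well. Over all genes tested 13.7% were separated upward and 17.7% downward. Aen and Ccng1 were printed because they were separated, and a link between site and change was not tested. A match of letters is a description and not a measured binding site.

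Of 10 genes of death and survival signalling, 9 were tested and 1, Trp53i11, was called higher (11.1%, against 3.48% of all genes). It was also the only 1 higher at an unadjusted p under 0.05 (11.1%, against 11.7% of all genes). Trp53i11, the p53-inducible protein 11 gene (chromosome 2, 93187349 to 93201757), measured 30.3, 19.2 and 30.4 FPKM in the mock and 47.8, 42.1 and 60.8 FPKM in the irradiated mice. Its log2 change was 0.92 (SE 0.23, limma adjusted p = 0.045), close to the threshold. The call was lost when any 1 library was left out and with no filter (adjusted p = 0.072). The direction was kept in each of 19 alternatives, but in many of them it could not change. The groups did not overlap, so leaving out a library could not reverse it. With no filter or the replicate number as a block the log2 change stays at 0.92.

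Eda2r had the widest relative separation of the death receptors, at low levels. Eda2r encodes the receptor of ectodysplasin A2 in the TNF receptor family (chromosome X, 97333837 to 97377234). It measured 0.11, 0.13 and 0.09 FPKM in the mock and 0.32, 0.44 and 0.35 FPKM in the irradiated mice. The lowest irradiated value was over 2 times the highest mock value, and the 3 mock libraries, mock 2 included, lay close together. With no filter its log2 change was 0.50 (SE 0.08, limma adjusted p = 0.022) with a pseudocount of 0.5 and 1.14 (SE 0.22, adjusted p = 0.032) with one of 0.1. The call was not kept without mock 1, mock 2, mock 3, irradiated 2 or irradiated 3 (adjusted p from 0.052 to 0.095), nor with the replicate number as a block (0.059) or without mock 2 and irradiated 1 together (0.060). Fas and Tnfrsf10b, receptors of FasL and TRAIL, were not called. Fas measured 0.97, 1.79 and 1.89 FPKM in the mock and 1.86, 1.63 and 2.13 FPKM in the irradiated mice. Tnfrsf10b ranged from 0.38 to 0.62 FPKM in the mock and from 0.46 to 0.71 FPKM in the irradiated mice, so the groups overlapped.

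Perp, a desmosomal protein gene induced in p53-dependent death, measured 4.85, 6.47 and 6.13 FPKM in the mock and 4.73, 4.39 and 4.04 FPKM in the irradiated mice. All irradiated values lay below mock, narrowly for mock 1, and the change was not called (log2 change -0.36, 95% interval -0.75 to 0.03, adjusted p = 0.22). Trp53inp1, a stress-induced p53 partner, measured 2.99, 2.89 and 2.76 FPKM in the mock and 2.68, 4.09 and 4.28 FPKM in the irradiated mice, with irradiated 1 below the mock range and the other 2 above it (log2 change 0.28, adjusted p = 0.40). Phlda3, an inhibitor of AKT, was the most abundant tested death and survival gene in mock, at 46.2, 59.9 and 60.4 FPKM, and stood at 68.7, 64.1 and 40.7 FPKM in irradiated libraries. Irradiated 3 was the lowest of the 6 and irradiated 1 the highest (log2 change 0.03, 95% interval -0.49 to 0.55). Zmat3, an RNA-binding protein gene, had a log2 change of 0.00 (95% interval -0.50 to 0.50), Ei24, an endoplasmic reticulum protein gene, one of -0.01 (-0.48 to 0.45), and Pidd1, the scaffold of the PIDDosome, one of -0.20 (-0.66 to 0.27).

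Of the 4 redox and metabolism genes, 0 were called. At an unadjusted p under 0.05, 1 was higher, Ephx1 (25%, against 11.7% of all genes). Ephx1, the microsomal epoxide hydrolase (chromosome 1, 180989556 to 181017569), measured 20.4, 18.2 and 26.4 FPKM in the mock and 37.6, 29.3 and 37.5 FPKM in the irradiated mice. Its log2 change was 0.68 (SE 0.19, 95% interval 0.25 to 1.11, limma adjusted p = 0.065). Dcxr, an L-xylulose and dicarbonyl reductase gene, measured 15.5, 14.7 and 20.3 FPKM in the mock and 24.3, 20.8 and 19.97 FPKM in the irradiated mice, where irradiated 3 lay just under mock 3 (log2 change 0.37, adjusted p = 0.23). Sesn1 and Sesn2, whose products restrain mTORC1, overlapped between the groups. Sesn1 ranged from 35.98 to 39.8 FPKM in the mock and from 29.6 to 42.1 FPKM in the irradiated mice, and Sesn2 from 7.43 to 9.50 and from 7.73 to 9.90 FPKM. Gdf15, the secreted stress cytokine of the set, was low, with 0.71, 0.75 and 0.76 FPKM in the mock and 0.42, 1.37 and 0.35 FPKM in the irradiated mice. The mock values were almost equal, while irradiated 2 lay above them and irradiated 1 and 3 below (log2 change -0.13, 95% interval -0.80 to 0.55).

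**Figure D3:**
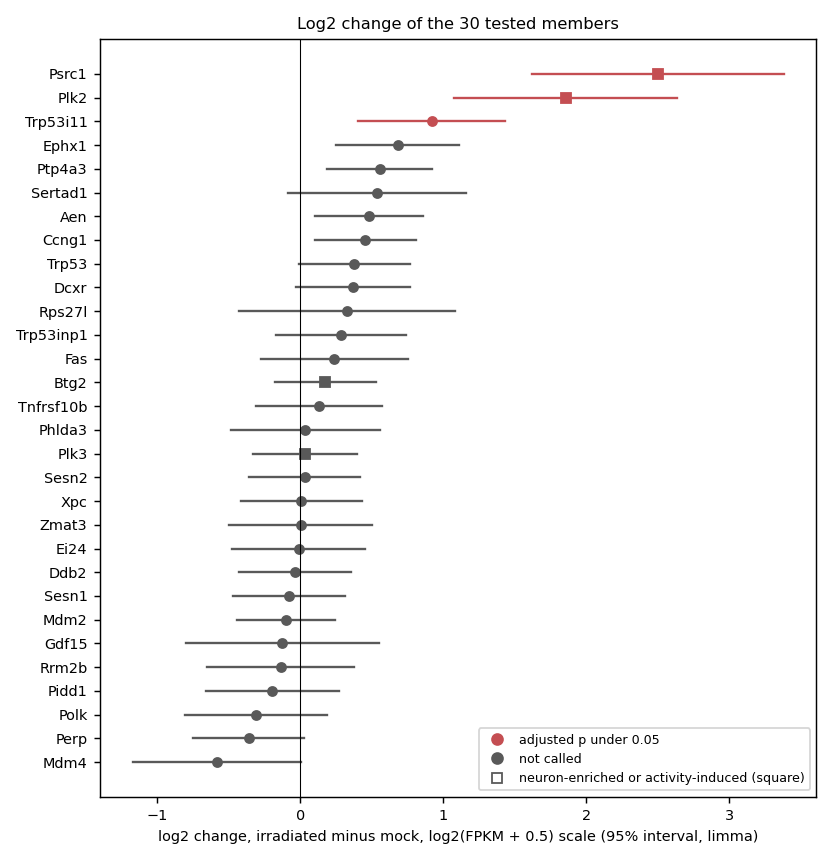
Log2 change of the 30 tested members between irradiated and mock libraries, with the 95% interval from limma on the log2(FPKM + 0.5) scale (red, called; grey, not called; squares, the 4 neuron-enriched or activity-induced members). The intervals of Ephx1, Ptp4a3, Aen and Ccng1 also lie above 0, but these genes missed the adjusted threshold.

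Separating the neuron-enriched or activity-induced members, Plk2, Plk3, Btg2 and Psrc1, from the other 28 put 2 of the 3 calls into the first group. That group had 2 of 4 called higher and a median log2 change of 1.01. Of the other 28, 26 were tested, with a median of 0.03, and 1 was called higher (3.85%, near the 3.48% of all genes) and 0 lower. Before adjustment 5 were higher (19.2%, against 11.7% of all genes) and 0 lower at p under 0.05. The 4, Psrc1 among them, were set apart from background knowledge and with earlier results known. Neuronal enrichment was not measured here, so their count of calls and their median are descriptions.

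Mock 2 differed from mock 1 and mock 3 in telencephalic genes inside a single group, so each member was also compared between these libraries. On the log2(FPKM + 0.5) scale the difference of mock 2 from the mean of the other 2 ranged from -4.42 to 0.05 over the 8 telencephalic genes, with a median of -2.47, and all genes tested had a median of -0.05. Psrc1 stood at -1.28 in this measure, Plk2 at -1.08, Trp53i11 at -0.65 and Sertad1 at -0.59. Ephx1, Ptp4a3 and Trp53 stood at -0.34, -0.33 and -0.29. Zmat3 and Xpc, with log2 changes between groups of 0.00 and 0.01, were also low in mock 2, at -0.49 and -0.33. Aen, Eda2r and Ccng1 stood at 0.04, 0.06 and 0.31, so mock 2 was not low in these genes. The 3 called members are thus also the 3 that were lowest in mock 2. Over the 508 genes called higher the median was -0.33. This gap and the change between groups share the mock libraries and are not independent.

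**Figure D4:**
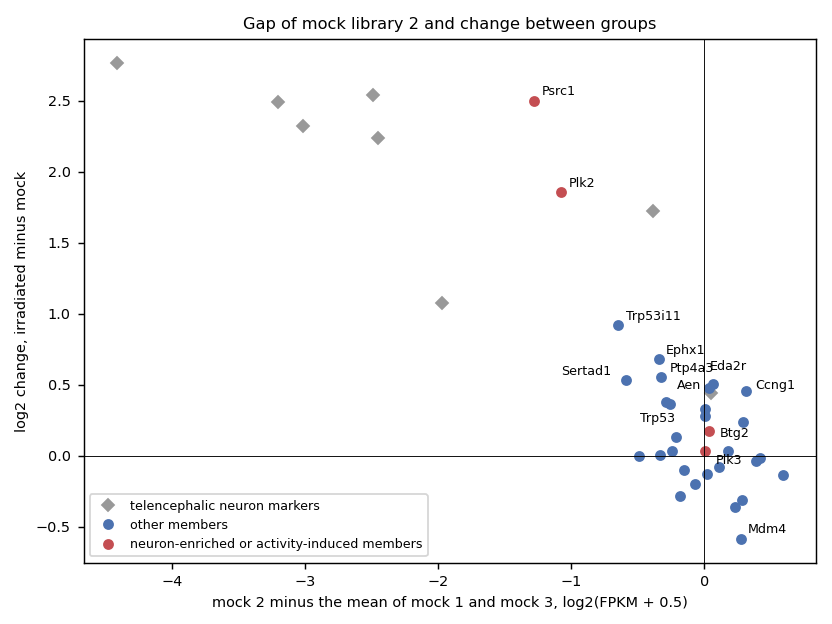
Difference of mock 2 from the mean of mock 1 and mock 3 (x axis) and log2 change between groups (y axis, fit with no filter for the members), both on the log2(FPKM + 0.5) scale, for the 32 members and 8 telencephalic neuron markers (grey). Psrc1, Plk2 and Trp53i11 extend toward the telencephalic markers, while Aen, Eda2r and Ccng1 sit at or right of 0 with changes of 0.45 to 0.50.

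A fit with the mean of the 8 telencephalic genes as a covariate gave 0 called members, with 18 genes called higher and 62 lower over the whole table. The covariate does not overlap between the groups, so part of the group difference cannot be told apart from it. The SE moved in both directions, from 0.34 to 0.27 for Plk2 and from 0.16 to 0.21 for Ccng1. The log2 change of Psrc1 in this fit was 1.42 (SE 0.39, adjusted p = 0.23 in limma) in place of 2.50. Plk2 had 0.81 (SE 0.27) in place of 1.86, Trp53i11 0.33 (SE 0.23) in place of 0.92 and Sertad1 0.07 (SE 0.39) in place of 0.53. Ephx1 had 0.41 (SE 0.27) in place of 0.68, Ptp4a3 0.26 (SE 0.20) in place of 0.55 and Trp53 0.23 (SE 0.25) in place of 0.38. Members with little change in the main fit moved as well. Ei24 had 0.44 (SE 0.24) in place of -0.01, Phlda3 0.38 (SE 0.33) in place of 0.03 and Zmat3 -0.35 (SE 0.31) in place of 0.00. Ccng1 had 0.67 (SE 0.21) in place of 0.45, Aen 0.60 (SE 0.25) in place of 0.48, and Eda2r, with no filter, 0.55 (SE 0.13) in place of 0.50. The estimates of these 3 genes were as large with the covariate as without it, but none was called (adjusted p = 0.30, 0.45 and 0.24). Cerebellar content was not a term in this fit.

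**Figure D5:**
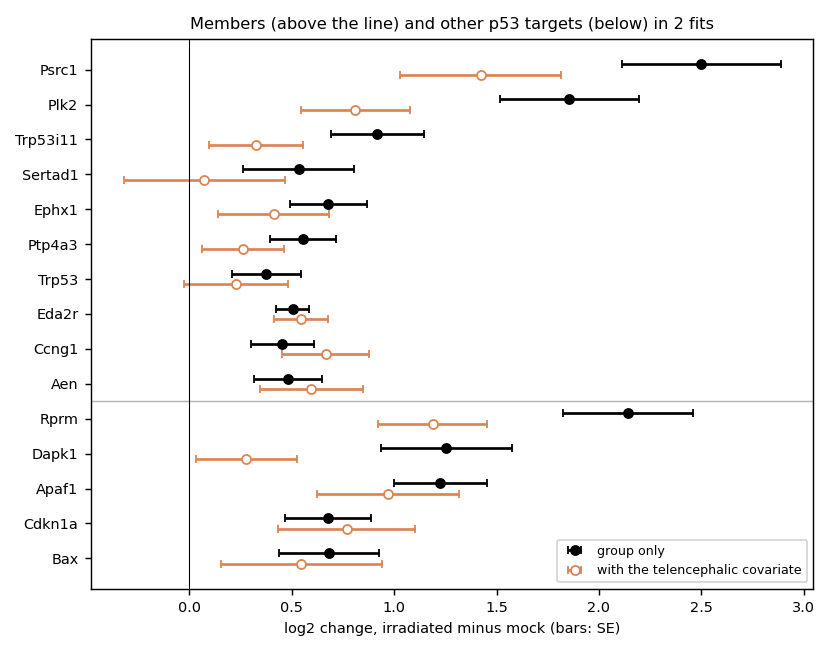
Log2 change between groups with group as the only term (black) and with the telencephalic covariate (open orange), with SE, for 10 members above the line and 5 other p53 targets below it, chosen after their values were seen. Estimates of Psrc1, Plk2, Trp53i11, Sertad1, Ephx1, Ptp4a3, Trp53, Rprm, Dapk1, Apaf1 and Bax shrink. Those of Eda2r, Ccng1, Aen and Cdkn1a do not.

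Other genes of the pathway were read from the same fit. Of 17 tested arrest and apoptosis targets outside the set, 3 were called higher (17.6%, against 3.48% of all genes) and 0 lower, with a median log2 change of 0.19. Before adjustment 5 were higher (29.4%, against 11.7%) and 2 lower (11.8%, against 13.9%) at p under 0.05. Rprm, an arrest gene also expressed by cortical neurons, measured 14.2, 7.73 and 18.8 FPKM in the mock and 49.4, 50.6 and 78.4 FPKM in the irradiated mice, the same order of mock libraries as in Plk2. Its log2 change was 2.14 (adjusted p = 0.0064), and 1.19 (adjusted p = 0.13) with the telencephalic covariate. Dapk1, a death-associated kinase, had a log2 change of 1.25 (adjusted p = 0.0498) and was called in 8 of 19 alternatives. Apaf1, the core of the apoptosome, had one of 1.23 (adjusted p = 0.017). It was not called when any 1 mock library was left out.

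Cdkn1a, the p21 gene, was separated upward without a call (log2 change 0.68, 95% interval 0.20 to 1.16, adjusted p = 0.087), and 0.77 (SE 0.33) with the telencephalic covariate. Bax, a pore-forming death effector, measured 49.9, 46.9 and 66.6 FPKM in the mock and 117.4, 64.3 and 86.2 FPKM in the irradiated mice, with irradiated 2 inside the mock range (adjusted p = 0.13). Bbc3, which encodes PUMA, had a log2 change of -0.14 (95% interval -0.59 to 0.30). Of 27 tested further targets, 1 was called higher (3.70%, near the 3.48% of all genes) and 0 lower, with a median of 0.05. Before adjustment 2 were higher (7.41%, against 11.7%) and 2 lower (7.41%, against 13.9%) at p under 0.05. The called gene, Tap1, encodes a peptide transporter of antigen presentation that interferon also induces, and had a log2 change of 0.85 (adjusted p = 0.032). It was not called when any 1 library other than irradiated 1 was left out, with no filter (0.055), with the replicate number as a block (0.064) or without mock 2 and irradiated 1 together (0.066).

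Of 19 tested regulators of p53, 0 were called higher and 1 lower (5.26%, against 4.24% of all genes), with a median log2 change of -0.15. Before adjustment 0 were higher and 4 lower at p under 0.05, which is 21.1% lower against 13.9% of all genes. Ppm1d, which encodes the WIP1 phosphatase that switches off p53 signalling and is itself a p53 target, fell. It measured 10.3, 11.6 and 9.69 FPKM in the mock and 5.69, 6.09 and 6.19 FPKM in the irradiated mice. The groups lay far apart, with a log2 change of -0.76 (SE 0.15, adjusted p = 0.022). It was not called when any 1 library other than irradiated 1 was left out, nor with the replicate number as a block. Atm, the kinase that signals double-strand breaks, had a log2 change of -0.37 (95% interval -0.89 to 0.15).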

How the data were processed

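Per the labels' protocols, total RNA of dissected brains was depleted of ribosomal RNA, made into stranded libraries and sequenced as 75-nucleotide single-end reads, about 30 to 40 M per library. The deposited values are FPKM, 1 column per library. The submitters' processing notes name TopHat, Cufflinks, Cuffdiff and mm10. Versions, settings and annotation were not given in the sources used here. FPKM summed to 472450 to 625782 per library. No step of 1 read could be read from low values (at most 7.49% of genes under 0.05 FPKM shared 1 ratio between libraries), so the depth behind a value is unknown and no count model was used.

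From these values, after removal of 1 leftover header line, limma 3.58.1 in R 4.3.3 was run on log2(FPKM + 0.5) for the 14585 genes that averaged 0.5 FPKM or more. Group was the only term, with a mean-variance trend, two-sided tests and adjustment by Benjamini-Hochberg over all genes. A permutation of 3 against 3 cannot give a p under 0.1. The fit was tested on simulated data. Members, lists and the split by neuronal expression were chosen with earlier results of these data known. Named genes were all members, Cdkn1a, Bax, Bbc3, Atm and every called gene of 3 pathway lists, beside Dusp5 and other examples chosen after their values were seen. Coordinates and promoter windows are those of RefSeq for GRCm38.p6, and exon overlaps those of GENCODE M21.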

Additional observations from a re-analysis of the deposited data

How the results depend on the processing

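No result reversed its direction as a called change. Of the 32 members, 20 kept their sign in every alternative fitted and 12, with log2 changes from -0.14 to 0.33, lost it in some, and 25 were called in no alternative. Some alternatives could not change a sign, because they leave the log2 change as it is. These include a changed filter alone, the replicate number as a block and an adjusted p under 0.1. The number of members called higher was 3, with 5 under median centring, library weights or an adjusted p under 0.1, and 0 with the telencephalic covariate. It was 1 to 2 with 1 library left out (1 without irradiated 3). Members called lower were 0 in every alternative. The members' median log2 change of 0.08 ranged from 0.07 to 0.15 with 1 library left out, and was 0.17 at a mean of at least 1 FPKM, 0.14 with quantile normalization and 0.20 with the covariate. Genes called over all were 508 higher and 618 lower. These became 863 and 976 with library weights, 18 and 62 with the covariate, and 1002 and 1149 at an adjusted p under 0.1. They ranged from 147 to 673 and from 254 to 695 with 1 library left out, the lowest without irradiated 3 for higher and without mock 1 for lower genes. With the replicate number as a block 394 were lower and 401 higher. Other p53 pathway genes called were 4 higher and 1 lower. They were 2 higher with no filter at either pseudocount, 2 higher and 0 lower with the replicate block, 0 and 0 with the covariate, 2 lower at an adjusted p under 0.1, and 1 to 5 higher and 0 to 2 lower with 1 library left out.

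Same-numbered libraries did not deviate together (correlations of -0.33, 0.19 and 0.20), so the numbers were not taken as pairs, and the block kept the 3 called members. The fit with no filter and a pseudocount of 0.1, and for Eda2r and Ckap2 no filter together with each other alternative, were chosen after seeing the data. With no filter, median centring gave Eda2r a log2 change of 0.62 in place of 0.50. Unknown depth limits what can be said of members under 1 FPKM.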
